A study of Homo sapiens with 9 samples.

Results

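The transcriptional response to the MEK inhibitor PD325901 was read by setting 3 arrays of treated MDA-MB231 cells against the 4 arrays of vehicle-treated cells, out of 9 arrays in all. All 18132 genes with a probe set of their own entered the comparison, each through the probe set with the highest mean signal. Every culture was plated at 70% confluency, given fresh medium with serum on the next day together with vehicle or inhibitor, and lysed 24 h later. Control cultures received 0.1% DMSO, and treated cultures received 3 µM PD325901 diluted from a stock in DMSO. How much DMSO accompanied the inhibitor was not stated in those sources. The other 2 arrays came from cells given 10 µM BB94, a metalloproteinase inhibitor, and serve below only to ask where PD325901 differed from another inhibitor. The labels call the samples biological replicates of this cell line, and neither a batch nor a date was given. The series concerns the proteolytic release of receptor kinases from the cell surface and resistance to kinase inhibitors, so the comparison asks what 24 h of MEK inhibition did to transcript levels.

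MEK1 and MEK2 are the kinases that activate ERK, the last kinase of the cascade that runs from growth factor receptors through RAS and RAF. Active ERK raises the transcription of immediate-early and ETS factors, of cyclin D1, and of phosphatases and Sprouty proteins that in turn restrain the cascade. MDA-MB231 is an established triple-negative, mesenchymal breast cancer line. The markers of this line and the hormone receptors given next matched that label. VIM, CD44, AXL and CAV1 had mean control signals of 14.03, 13.09, 13.71 and 12.40 on the log2 scale, whereas ESR1 and PGR, the hormone receptors of luminal cells, had 4.43 and 5.13. The background level of an array is the highest signal of its 23 background probe sets, 6.02 to 6.50 over the arrays. Of 13 leukocyte markers, 11 lay below it on all 7 arrays, among them PTPRC, CD3E and MS4A1. Of 14 fibroblast and endothelial markers, 10 did so. In bulk RNA, fewer cells of a kind and less RNA per cell cannot be told apart.

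PD325901 changed many genes, most of them by less than 2-fold. By limma with Benjamini-Hochberg adjustment, 6365 of 18132 genes (35.1%) were called at an adjusted p under 0.05, 4142 (22.8%) higher and 2223 (12.3%) lower. Of these, 959 rose and 479 fell at least 2-fold, and 4927 changed by less. The 3 treated arrays all lay above the 4 control arrays for 25.6% of genes and all below them for 14.8%. The largest falls came from genes that were abundant in the control, and the largest rises from genes at low or middle levels. With genes ranked by control level into 4 bins of 4533, 8.01% rose and 0.287% fell in the lowest bin, against 16.7% and 23.0% in the highest. The lowest bin spans control signals of 2.45 to 4.34, all under the background level, where a fall could hardly register. The place of the falls among abundant genes is thus partly set by the floor of the arrays. In 201 genes the control lay below background on all 4 arrays and the treated cells above it on all 3, and 106 genes went the other way. Over all genes the median change was 0.08. With arrays centred on the median of their genes, every change moved by -0.25, which turned the calls to 2353 higher and 5076 lower. Centring over probe sets moved them by -0.10 and gave 3286 higher and 2984 lower. Each list below is therefore given by its counts and its median, with arrays as deposited and centred over genes. These are to be set beside the 22.8% higher, 12.3% lower and median of 0.08 of all genes. Those shares include 6893 of 18132 genes that lay below background on all 7 arrays. In the bins between the lowest and highest, 31.02% and 35.69% rose and 7.39% and 18.35% fell. Tested alone, the 10995 genes with a mean log2 signal of at least 6 gave 3562 higher and 2289 lower. A list of expressed genes can thus exceed the share of all genes without exceeding that of expressed genes.

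**Figure D1:**
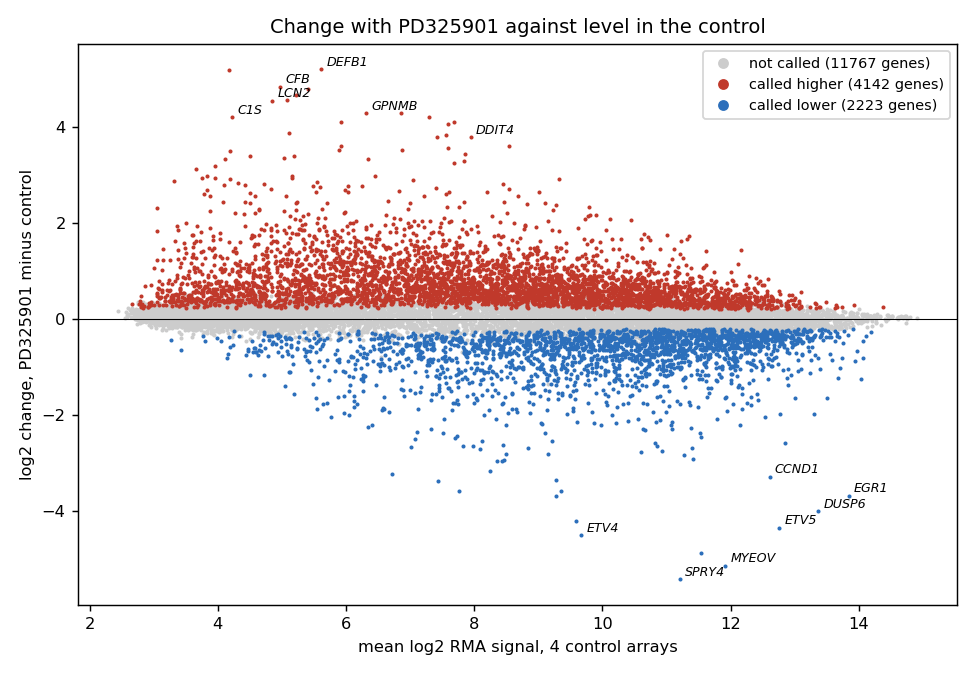
Log2 change of each gene (PD325901 mean minus control mean, vertical axis) against its mean log2 signal on the 4 control arrays (horizontal axis), with called genes in red (4142 higher) and blue (2223 lower) and all others in grey. Large falls lie at the right, where DUSP6, EGR1, ETV5 and MYEOV had control signals above 11, and large rises lie at the left and centre.

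The genes of the RAS, RAF, MEK and ERK cascade itself moved little. Of 20 measured, 9 rose and 4 fell, with a median change of 0.15 that turned to -0.10 with arrays centred over genes. Beside the share of all genes, 22.8% higher and 12.3% lower, these are 45% and 20%. MRAS, a RAS-related GTPase that takes part in RAF activation, was the one member past 2-fold. It read 9.02, 9.25, 9.24 and 8.76 on the control arrays and 10.23, 10.10 and 10.04 with PD325901, a 2.08-fold rise (adjusted p = 9.94e-05). The exchange factor genes SOS2 and SOS1, which load RAS with GTP, rose 1.70-fold and 1.36-fold. NF1, which switches RAS off, had a change of 0.64, carried by 5 of its 21 probe sets, and with the mean of its probe sets the call was lost (adjusted p = 0.233). MAP2K1, which encodes the target MEK1, fell 1.36-fold (adjusted p = 0.00257), while MAP2K2, for MEK2, rose 1.27-fold (adjusted p = 0.017) and MAPK3, for ERK1, rose 1.49-fold (adjusted p = 0.00248).

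The genes that restrain ERK were among those that fell furthest. Of 20 phosphatases and feedback inhibitors, 12 fell, 4 rose and 4 were not called, and the median change was -1.14 against 0.08 over all genes. DUSP6, the cytoplasmic phosphatase of ERK, read 13.34, 13.52, 13.36 and 13.24 in the control and 11.04, 8.99 and 8.02 with PD325901. The fall was 16.2-fold (log2 -4.01, SE 0.53, adjusted p = 1.49e-04), and the groups did not overlap although the treated arrays lay far apart. SPRY4, a Sprouty inhibitor of receptor signalling, stood at 11.18, 11.30, 11.26 and 11.09 in the control and at 6.72, 5.83 and 4.78 with the drug. Replicate 1 alone of the treated arrays lay above background, so the fall was at least 25.4-fold, and 1 of its 3 probe sets was called in the opposite direction.

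Other Sprouty, SPRED and DUSP genes fell as well. SPRED2 and SPRED1, which block RAF activation, fell 6.73-fold and 4.89-fold, with SPRED2 at -3.13 against control replicates 1 and 2 alone and -2.37 against replicates 3 and 4 alone. SPRY1 and SPRY2 fell 5.51-fold and 2.98-fold. DUSP4, a nuclear phosphatase of ERK, had 12.14, 12.12, 12.13 and 12.19 in the control and 10.04, 9.85 and 9.94 in treated cells, a 4.60-fold fall (adjusted p = 1.55e-08). DUSP5 fell 3.14-fold, and DUSP2, with 1 of 3 treated arrays above background, at least 3.40-fold. The immediate-early genes IER3 and PHLDA1, from control signals above 13, fell 2.37-fold and 2.05-fold. ERRFI1, a feedback inhibitor of EGFR, had a change of -0.12 (95% interval -0.34 to 0.10).

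The 4 genes of this list that rose were all dual-specificity phosphatases, as were DUSP4, DUSP2, DUSP5, DUSP6 and DUSP14 among those that fell, DUSP14 by -0.26 (adjusted p = 0.032). DUSP1, whose product prefers p38 and JNK, read 6.74, 7.65, 7.30 and 7.17 in the control and 9.08, 10.06 and 10.21 with PD325901, a 5.92-fold rise (log2 2.57, SE 0.32, adjusted p = 1.08e-04). The groups did not overlap, and replicate 1 was the lowest treated array. DUSP10 and DUSP16, which also act on JNK or p38, rose 1.96-fold and 1.44-fold, and DUSP8 rose 1.84-fold. DUSP10 stood at 10.60 and 10.58 in control replicates 1 and 2 and at 9.58 and 9.61 in replicates 3 and 4, against 10.87, 10.95 and 11.38 in treated cells.

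The ETS factors of the PEA3 family and the AP-1 factor FOSL1 fell together. Of 22 immediate-early, AP-1 and ETS genes, 12 fell, 2 rose and 8 were not called, with a median of -0.90. ETV5 read 12.79, 12.82, 12.74 and 12.69 in the control and 9.49, 8.01 and 7.71 with PD325901, a 20.4-fold fall (log2 -4.35, SE 0.33, adjusted p = 3.03e-06). ETV4 fell at least 9.53-fold to signals below background on all 3 treated arrays, and ETV1 at least 23.9-fold, with 1 treated array above background. All 4 probe sets of ETV5, both of ETV4 and all 8 of ETV1 were called lower.

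EGR1, a zinc finger factor induced directly by ERK, stood at 13.62, 14.08, 13.88 and 13.78 in the control and at 11.54, 9.74 and 9.18 in treated cells, a 12.9-fold fall (adjusted p = 7.54e-05). FOSL1, the AP-1 subunit whose protein ERK stabilises, went from 11.12, 11.36, 11.64 and 11.52 to 8.80, 8.46 and 8.24, a 7.52-fold fall (adjusted p = 2.37e-07). MAFF fell 3.42-fold and JUN 1.69-fold, whereas FOSL2 rose 1.32-fold and JUNB, above background on 3 of 4 control arrays, at least 1.21-fold; both were not called higher with arrays centred over genes. FOS itself had a change of -1.35 that was not called (adjusted p = 0.0736).

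MYC fell 2.59-fold (log2 -1.37, SE 0.31, adjusted p = 0.00567), but its controls were split. It read 11.20 and 11.21 in control replicates 1 and 2, 10.29 and 9.74 in replicates 3 and 4, and 9.10, 9.14 and 9.48 in the treated cells. The treated arrays lay below every control, and the change was -1.97 against the first pair of controls alone and -0.78 against the second. Along the second principal component, with 10.2% of the variance between arrays, control replicates 1 and 2 lay at 24.99 and 6.43 and replicates 3 and 4 at -18.5 and -23.9. The difference between 3' and 5' probe sets of ACTB, a sign of RNA integrity, was 3.89 and 3.75 in the first pair and 3.46 and 2.96 in the second, and its part in the split was not tested.

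PD325901 replicate 1 was the highest treated array for most of the feedback, AP-1 and ETS genes that fell. Of the 24 genes called lower in the feedback and AP-1 and ETS lists, 21 were highest on replicate 1, 3 on replicate 3 and 0 on replicate 2. Over all 479 genes that fell at least 2-fold, 292 were highest on replicate 1, 90 on replicate 2 and 97 on replicate 3. Among the 959 genes that rose at least 2-fold, replicate 1 was also most often highest, in 384, against 282 on replicate 2 and 293 on replicate 3. The median over genes was 7.86 on replicate 1 and 7.79 and 7.77 on replicates 2 and 3. The part of this array's level in the pattern was not tested. DUSP6, ETV1, EGR1, SPRY4 and MYEOV had the largest spread of all called genes among the treated arrays. Without replicate 1, the changes of DUSP6, EGR1 and ETV1 were -4.86, -4.38 and -5.54. The ACTB 3' to 5' difference was 4.15 on replicate 1 and 3.608 and 3.502 on the others, and its part in these values was not tested. Over all genes the treated arrays were close, with a median SD of 0.0907 against 0.163 in the control.

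In a list of pericellular proteolysis, clotting and motility genes, 9 of 21 fell and 2 rose, with a median of -0.23, and 16 fell with arrays centred over genes. EPHA2, an ephrin receptor kinase, read 11.37, 11.43, 11.35 and 10.92 in the control and 8.57, 8.42 and 8.28 with PD325901, a 7.20-fold fall (adjusted p = 9.38e-08). PLAUR, the urokinase receptor, fell 3.05-fold in all 5 probe sets, while its ligand PLAU fell 1.23-fold (adjusted p = 0.0119). The integrin gene ITGA2, the ectonucleotidase NT5E (CD73), the protease inhibitor TFPI2 and the chromatin factor HMGA2 fell 2.63-fold, 2.59-fold, 2.56-fold and 2.37-fold. S100A4, a calcium-binding protein of motile cells, rose 2.11-fold (adjusted p = 1.46e-06). F3, ITGB1 and SERPINE2 had changes of -0.14, -0.08 and 0.02 that were not called. Among receptors and protease inhibitors outside the list, MET fell 1.67-fold and TIMP3 3.33-fold. ERBB3, above background on 3 of 4 control arrays, rose at least 2.46-fold, in 1 of 3 probe sets. AXL had a change of 0.05 (95% interval -0.10 to 0.21), which turned to below 0 with arrays centred over genes.

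The genes of G1 entry fell, with cyclin D1 in the lead. Of 22 cyclins, CDKs, E2F and RB proteins, 16 fell and RBL2 alone rose, with a median of -0.75. CCND1, the cyclin D1 that ties growth signals to the cell cycle, read 12.45, 12.53, 12.79 and 12.65 in the control and 9.58, 9.31 and 9.05 with PD325901, a 9.78-fold fall (log2 -3.29, SE 0.13, adjusted p = 3.61e-08). CCND3 fell 2.02-fold, and CCND2 had a change of 0.18 that was not called. CCNE2, the cyclin E of late G1, fell 4.01-fold, with changes of -2.49 and -1.52 against control replicates 1 and 2 and replicates 3 and 4 alone. CDC25A, the phosphatase that frees CDK2, and E2F1, which drives S-phase genes, fell 3.14-fold and 3.03-fold. CDK4 and RB1 had changes of -0.16 and -0.06 that were not called.

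The RefSeq neighbours of CCND1 did not move alike. MYEOV, next to it on one side, stood at 11.81, 11.90, 11.96 and 11.98 in the control and at 7.84, 6.42 and 6.02 in treated cells, at least 31.8-fold lower, with 2 of 3 treated arrays above background. LTO1, on the other side, fell 5.98-fold through 1 of its 4 probe sets. FGF19 and FGF4 lay below background on all 7 arrays, and TPCN2 had a change of -0.19 (adjusted p = 0.243). The locus was looked at after these values were seen.

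Of 16 genes of arrest and quiescence, 8 rose (50%, against 22.8% of all genes) and 2 fell (12.5%, against 12.3%). Their median was 0.40, or 0.15 with arrays centred over genes, where 6 rose and 3 fell. CDKN1C, which encodes the CDK inhibitor p57, went from 9.53, 9.71, 9.72 and 9.93 to 11.74, 11.83 and 11.84, a 4.23-fold rise (adjusted p = 1.15e-07). CCNG2, TXNIP and CDKN1B (p27) rose 2.78-fold, 2.21-fold and 2.04-fold. CDKN1A (p21), another inhibitor of the same family, fell 1.64-fold (adjusted p = 4.36e-04), and CDKN2D fell 1.53-fold.

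Most genes of 3 lists around DNA repair, chromatin and nucleotide supply fell. All 16 genes of homologous recombination and the Fanconi pathway fell, with a median of -1.22, as did 15 of 17 genes of chromatin maintenance in S phase, with a median of -0.91, and 19 of 26 genes of nucleotide synthesis, with a median of -0.61. None of these 59 genes rose, where 22.8% of all genes did. The exonuclease gene EXO1 read 10.76, 10.78, 10.86 and 10.76 in the control and 9.05, 8.90 and 8.61 with PD325901, a 3.82-fold fall (adjusted p = 2.79e-07). XRCC2, a gene of homologous recombination, BARD1, the partner of BRCA1, and BLM, a helicase, fell 3.92-fold, 3.86-fold and 3.41-fold, and BRCA1 itself 1.59-fold. BRIP1 was called lower with both groups below background.

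Among chromatin genes the histone chaperone gene CHAF1A read 9.36, 9.20, 9.59 and 9.62 in the control and 7.72, 7.39 and 7.27 in treated cells, a 3.96-fold fall (adjusted p = 1.36e-06). UHRF1, which guides maintenance DNA methylation, fell 3.38-fold in the probe set used, with 1 of its 3 probe sets called higher, and its partner DNMT1 fell 1.87-fold. UHRF1 changed by -2.12 against control replicates 1 and 2 alone and by -1.39 against replicates 3 and 4 alone. The methyltransferase gene SUV39H1 and EZH2, the catalytic subunit of PRC2, fell 3.07-fold and 1.96-fold.

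Both subunits of ribonucleotide reductase fell, RRM1 from 10.78, 10.76, 10.89 and 10.79 to 9.48, 9.50 and 9.37 (2.56-fold, adjusted p = 3.42e-07) and RRM2 2.36-fold. CTPS1, which makes CTP, and PPAT, the entry enzyme of purine synthesis, fell 2.11-fold and 1.99-fold. The thymidylate genes TYMS and TK1 fell 1.80-fold and 1.74-fold. IMPDH1 and IMPDH2, which commit IMP to GTP, had changes of 0.09 each that were not called.

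E2F factors bind promoters of many such genes. The motif TTTNNCGC, read on both strands from 250 bases before to 50 after the start (RefSeq, GRCh38.p14, 14425 of 18132 genes matched), was found in 11 of 54 promoters of these 3 lists (20.4%), in 53 of 361 of all genes that fell at least 2-fold (14.7%), in 43 of 754 of those that rose at least 2-fold (5.70%) and in 8.97% of all. As examples, stretches of 60 upstream bases are shown for 4 called members of the cyclin and S-phase lists with an upstream match. Not every member was eligible for display, and CCNE2, with a larger fall than UHRF1, CDC25A and E2F1, was left out whatever its sequence. The stretches run 5′ to 3′ along the gene, with matches in capitals, and those in E2F1 overlap.
UHRF1, chr19:4909441-4909500, plus strand: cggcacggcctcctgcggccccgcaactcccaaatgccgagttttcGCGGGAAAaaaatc
CDC25A, chr3:48188418-48188477, minus strand: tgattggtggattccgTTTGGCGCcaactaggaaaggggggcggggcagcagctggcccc
E2F1, chr20:33686386-33686445, minus strand: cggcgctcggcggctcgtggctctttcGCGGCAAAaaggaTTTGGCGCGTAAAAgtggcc
RBL1, chr20:37095998-37096057, minus strand: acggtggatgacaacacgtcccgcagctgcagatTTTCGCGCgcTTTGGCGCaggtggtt
RBL1, which encodes the pocket protein p107, fell at least 1.97-fold to below background on all 3 treated arrays. A match describes these letters and shows no binding. The AP-1 motif TGANTCA was in 5.82% of promoters of genes that fell at least 2-fold and 5.80% of all.

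Of 18 genes of amino acid transport and tRNA charging 6 fell (33.3%, against 12.3% of all genes) and 1 rose (5.56%, against 22.8%). Their median of 0.06 turned to -0.20 with arrays centred over genes. The list was led by the glutamine transporter SLC1A5, which read 9.68, 9.86, 10.28 and 10.03 in the control and 8.79, 8.99 and 8.58 with PD325901 (2.25-fold lower, adjusted p = 1.09e-04). The cystine transporter SLC7A11 rose 1.33-fold, a call lost with arrays centred over genes (adjusted p = 0.217). Of 19 glycolytic genes 5 fell (26.3%) and 2 rose (10.5%), with a median of -0.08, and 10 fell and 1 rose with arrays centred over genes. None changed 2-fold, with ENO1 1.45-fold and PFKP 1.28-fold lower. GAPDH, LDHA and SLC2A1 had changes of 0.02, -0.19 and 0.11 that were not called. Of 17 genes of sterol and fatty acid synthesis, 2 were called, both higher, with LSS at 0.66, whereas 1 rose and 6 fell with arrays centred over genes. Of 19 respiratory chain genes 3 were called higher, none by over 1.24-fold, whereas with arrays centred over genes all 3 lost their calls and 4 others fell. The shares higher in these lists, 11.8% and 15.8%, were below the 22.8% of all genes.

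Of 16 genes of the BCL2 family, which controls the release of apoptotic factors from mitochondria, 5 rose (31.2%, against 22.8% of all genes) and 4 fell (25%, against 12.3%). The median was 0.11, which turned to -0.14 with arrays centred over genes. All 4 that fell are anti-apoptotic, BCL2A1, BCL2, BCL2L1 and MCL1, and all 5 that rose are pro-apoptotic BH3-only genes, BBC3, BCL2L11, HRK, BAD and BID. BCL2A1 went from 11.36, 11.41, 11.54 and 11.77 to 9.30, 9.07 and 9.03, a 5.23-fold fall (adjusted p = 1.21e-07) in 1 of its 2 probe sets. BCL2 fell 2.78-fold, BCL2L1 (BCL-XL) 2.11-fold and MCL1 1.92-fold. BCL2L11, which encodes BIM, a protein that ERK marks for degradation, read 8.29, 8.09, 8.22 and 8.36 in the control and 9.13, 9.29 and 9.08 in treated cells, a 1.90-fold rise (adjusted p = 2.26e-05) in 3 of 14 probe sets. BBC3 (PUMA) rose 2.24-fold. With arrays centred over genes 2 members rose and 6 fell, and without PD325901 replicate 1 the rises numbered 3.

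Of 16 FOXO and insulin pathway genes 10 rose (62.5%, against 22.8% of all genes) and 2 fell (12.5%, against 12.3%), with a median of 0.41. With arrays centred over genes 6 rose and 4 fell. PIK3IP1, an inhibitor of PI3K, stood at 5.83, 5.81, 5.64 and 5.203 in the control, below background, and at 7.92, 7.79 and 8.03 in treated cells, at least 3.25-fold higher. CITED2 rose 3.63-fold and PDK4, which blocks pyruvate dehydrogenase, 2.67-fold, the latter in 1 of 2 probe sets. Of 15 p53 target genes 6 rose and 6 fell (40% each), with a median of 0.24 that turned to -0.02 with arrays centred over genes. AEN fell 3.49-fold and MDM2 1.43-fold, whereas TP53INP1, in 1 of 2 probe sets, and PHLDA3 rose 2.51-fold and 2.15-fold.

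Of 23 lysosome and autophagy genes, 11 rose (47.8%) and 2 fell (8.70%), against 22.8% and 12.3% of all genes, with a median of 0.27 that came to 0.02 with arrays centred over genes, where 6 rose. CTSD, a lysosomal protease, went from 7.20, 7.18, 7.86 and 7.28 to 9.03, 8.96 and 8.66, a 2.83-fold rise (adjusted p = 5.13e-05). GABARAPL1, in 1 of 4 probe sets, and WIPI1, which act in autophagosome formation, rose 2.05-fold and 1.84-fold. TFEB, a master regulator of these genes, was called higher with both groups below background, and LAMP1, LAMP2, CTSB and CTSL were not called.

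All 4 ID genes, encoding inhibitors of differentiation factors and classical BMP targets, rose, also with arrays centred over either median. ID3 read 7.84, 7.57, 7.501 and 7.31 in the control and 10.13, 10.16 and 10.23 with PD325901, a 6.13-fold rise (log2 2.62, SE 0.11, adjusted p = 7.51e-08). ID2, ID1 and ID4 rose 4.22-fold, 2.27-fold and 2.15-fold. The ligand genes BMP2 and BMP4 fell 1.84-fold and 1.41-fold, as did SMAD6, an inhibitor of the pathway, by 1.59-fold. Over the list of 17 genes, 7 rose (41.2%) and 3 fell (17.6%), against 22.8% and 12.3% of all genes. The median of 0.23 turned to -0.02 with arrays centred over genes.

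In the TGF-beta pathway the receptors fell. Of 18 genes 6 fell (33.3%, against 12.3% of all genes) and 2 rose (11.1%, against 22.8%), with a median of -0.08, or -0.34 with arrays centred over genes. TGFBR2, the ligand-binding receptor, read 12.56, 12.61, 12.34 and 12.23 in the control and 10.83, 10.60 and 10.83 in treated cells, a 3.21-fold fall (adjusted p = 1.17e-06), and TGFBR3 and TGFBR1 fell 1.55-fold and 1.33-fold. The ligand TGFB2 rose 2.61-fold, and none of SMAD2, SMAD3, SMAD4 and SMAD7 was called. Against control replicates 3 and 4 alone 7 members rose.

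Notch and WNT genes moved both ways. Of 18 Notch genes 7 fell (38.9%, against 12.3% of all genes) and 5 rose (27.8%, against 22.8%), with a median of 0.02 that turned to -0.23 with arrays centred over genes. The target HES1, a repressor, stood at 8.66, 9.89, 9.32 and 9.52 in the control. It fell at least 7.60-fold to below background, in 2 of 5 probe sets. HEY1 fell 3.39-fold in 1 of 2 probe sets. The receptor NOTCH3, in 1 of 2 probe sets, and the target HEYL rose 2.60-fold and 2.32-fold. Of 25 WNT genes 8 rose (32%) and 5 fell (20%), with a median of 0.05, whereas 4 rose and 10 fell with arrays centred over genes. AXIN2, a feedback target of beta-catenin, rose 4.11-fold through 1 of 3 probe sets, by 1.61 against control replicates 1 and 2 alone and 2.47 against replicates 3 and 4 alone. The receptor genes FZD1 and FZD8 fell 3.72-fold and at least 2.77-fold, and LEF1 and DKK1 were not called.

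Of 18 YAP and TEAD genes, 9 fell (50%, against 12.3% of all genes) and 4 rose (22.2%, against 22.8%), with a median of -0.29, or -0.54 with arrays centred over genes. The coactivator gene WWTR1 (TAZ) fell 2.46-fold, the targets ANKRD1 and CCN2 (CTGF) 2.24-fold and 1.77-fold, and YAP1 was not called. ARHGEF17 and AJUBA rose 3.02-fold and 2.12-fold. Of 16 clock genes 8 rose (50%) and 4 fell (25%), with a median of 0.30, or 0.05 with arrays centred over genes. DBP, an output gene of CLOCK and BMAL1, rose at least 1.37-fold from below background, and CRY2, with 2 of 4 control arrays above background, at least 2.24-fold. BHLHE40 fell at least 2.18-fold, while its paralogue BHLHE41 rose 2.08-fold.

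**Figure D2:**
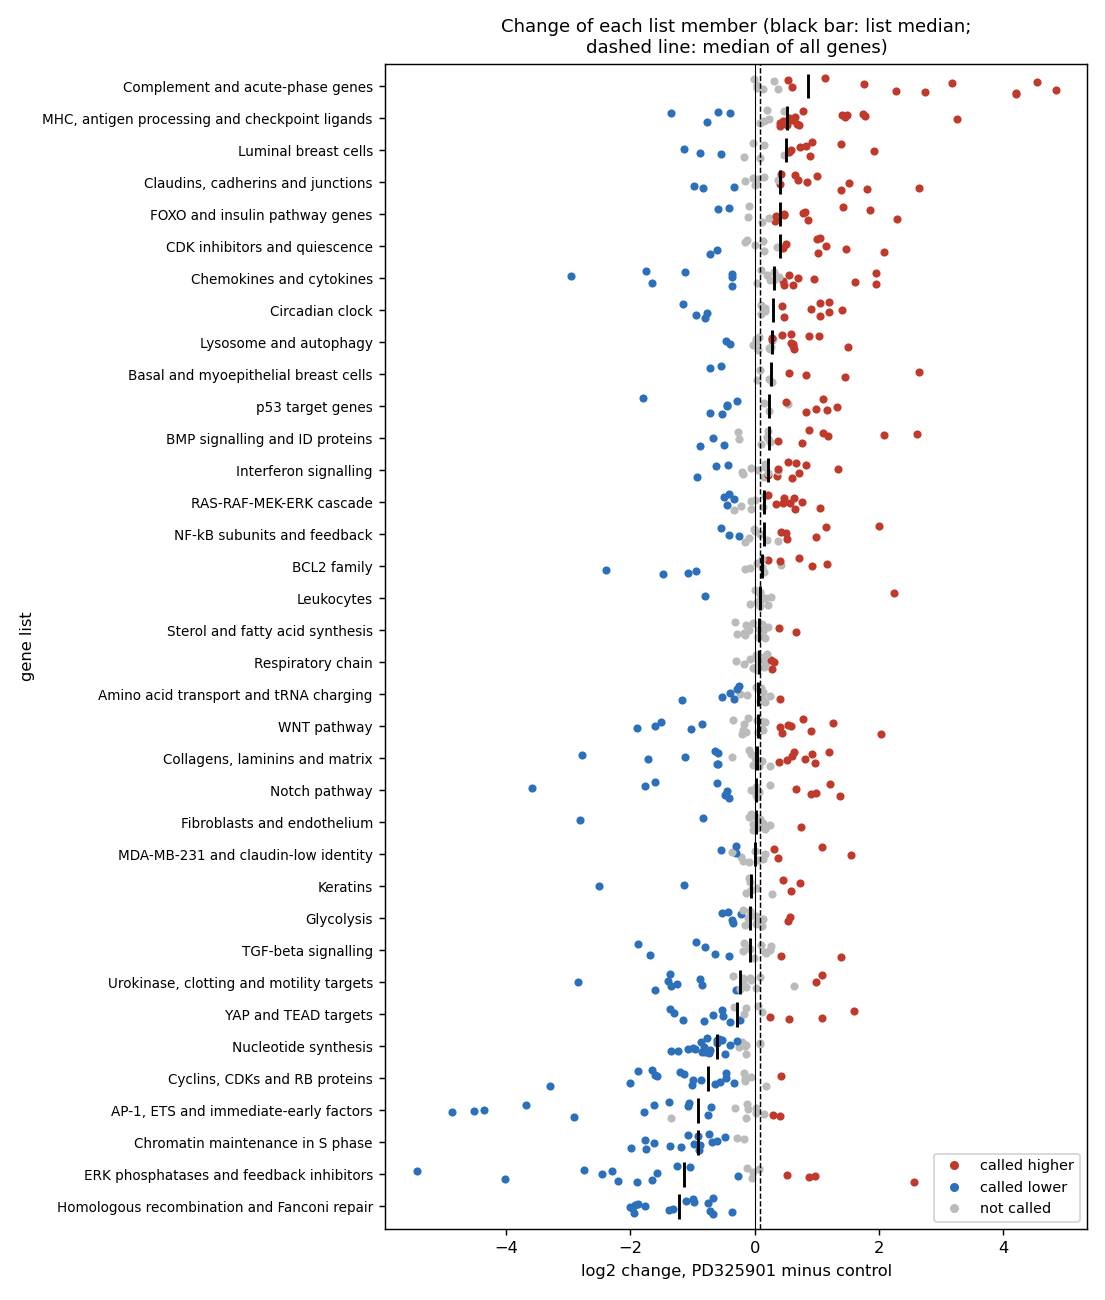
Log2 change (PD325901 minus control, horizontal axis) of every measured member of 36 gene lists (vertical axis, ordered by median), with members called higher in red, called lower in blue and not called in grey, a black bar at each list's median and a dashed line at the median of all genes, 0.08. The repair, ERK feedback, chromatin and AP-1 lists lie lowest, and the complement list, with a median of 0.86, lies highest.

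Of 19 claudins, cadherins and junction genes 10 rose (52.6%, against 22.8% of all genes) and 3 fell (15.8%, against 12.3%), with a median of 0.42, or 0.16 with arrays centred over genes. CDH3 (P-cadherin) read 7.95, 7.91, 7.60 and 6.97 in the control and 10.30, 10.21 and 10.27 with PD325901, a 6.29-fold rise (adjusted p = 3.71e-06). CDH2 (N-cadherin), a mesenchymal marker, rose by 1.81 on the log2 scale in 1 of 2 probe sets, and CLDN7, an epithelial claudin, 2.85-fold. CDH1 (E-cadherin) was called higher with both groups below background, and CLDN1 fell at least 1.78-fold. CDH11, a cadherin of mesenchymal cells, fell by 0.83 on the log2 scale (adjusted p = 9.1e-05), and CTNNA1, the alpha-catenin, by 0.33.

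Of 16 luminal markers 8 rose (50%) and 3 fell (18.8%), against 22.8% and 12.3% of all genes, with a median of 0.51, or 0.25 with arrays centred over genes. AGR2 rose 3.77-fold, and GATA3 and ERBB2 1.86-fold and 1.77-fold, all 3 from controls above background. KRT18 fell 2.21-fold, by -0.73 against control replicates 1 and 2 alone and -1.56 against replicates 3 and 4 alone, and its partner KRT8 rose by 0.58 on the log2 scale, a call lost with arrays centred over genes (adjusted p = 0.0575). KRT15, a basal keratin, fell at least 1.57-fold. Of 15 markers of this line and of claudin-low cells, 4 rose (26.7%, against 22.8% of all genes) and 3 fell (20%, against 12.3%). With arrays centred over genes 2 rose and 7 fell, and CAV2 and ANXA1 lost their calls (adjusted p = 0.326 and 0.64). SNAI2, a mesenchymal repressor, rose 2.92-fold, EGFR fell 1.46-fold, and VIM, CD44, AXL and ZEB1 were not called. Of 10 basal and myoepithelial markers 4 rose (40%, against 22.8% of all genes) and 2 fell (20%, against 12.3%). Their median of 0.26 came to 0.005 with arrays centred over genes, and 3 lay below background on all 7 arrays. MYLK, a myoepithelial gene, rose 2.75-fold, whereas SFN fell 1.64-fold (adjusted p = 0.00342). PECAM1, the adhesion molecule of endothelium, read 9.17, 9.13, 9.19 and 9.09 in the control and 6.86, 6.07 and 6.06 in treated cells, which is at least 5.89-fold lower, while the endothelial genes CDH5 and TEK lay below background on all 7 arrays. ITGAM and LUM were called higher below background.

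Matrix genes moved both ways. Of 24 matrix genes 8 rose (33.3%, against 22.8% of all genes) and 7 fell (29.2%, against 12.3%), with a median of 0.04, and 6 rose and 11 fell with arrays centred over genes. LAMB1, the laminin beta chain, read 10.55, 10.44, 10.72 and 10.68 in the control and 8.06, 7.75 and 7.63 with PD325901, a 6.87-fold fall (adjusted p = 5.94e-08). COL13A1, LAMA4, COL4A1 and COL4A2 fell 3.29-fold, 2.18-fold, 1.52-fold and 1.51-fold, while the laminin genes LAMB2 and LAMA5 rose 1.89-fold and 1.51-fold. LOX, which crosslinks collagen, and COL5A1 rose 2.29-fold and 1.95-fold. COL1A1, COL1A2 and FN1 were not called.

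Complement and acute-phase genes rose, several from below background. Of 18 measured 11 rose and 0 fell, with a median of 0.86, or 0.61 with arrays centred over genes, against 22.8% higher over all genes. Of the 7 not called, 4 lay below background on all 7 arrays. C1R, a protease of the first complement component, read 7.13, 7.25, 7.22 and 7.56 in the control and 11.46, 11.55 and 11.50 with PD325901, an 18.6-fold rise (log2 4.21, SE 0.10, adjusted p = 2.70e-09) seen in all 3 probe sets. Its neighbour and partner protease C1S went from 4.10, 4.16, 4.32 and 4.29, below background, to 8.27, 8.44 and 8.57, at least 4.65-fold higher. C1RL, on the other side of C1R, rose at least 4.38-fold. Further out, CLSTN3 and LPCAT3 were called higher, by 1.65 and 0.77, and EMG1, PHB2 and PEX5 were not called.

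CFB, the factor B of the alternative pathway, stood at 5.16, 4.70, 4.95 and 5.08 in the control and at 9.83, 9.79 and 9.84 in treated cells, at least 12.2-fold higher. C3, the central component, went from 9.05, 8.97, 9.39 and 9.49 to 11.43, 11.54 and 11.53, a 4.84-fold rise (adjusted p = 4.54e-07). LCN2, an iron-siderophore binder of the acute phase, rose at least 9.09-fold and CLU 2.18-fold. The serum amyloid gene SAA1 rose 3.37-fold and SAA2, its close paralogue, at least 1.91-fold. Signal may be shared between the probes of this pair. Of the membrane inhibitors of complement, CD55 rose 1.52-fold, and CD46 and CD59 were not called.

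**Figure D3:**
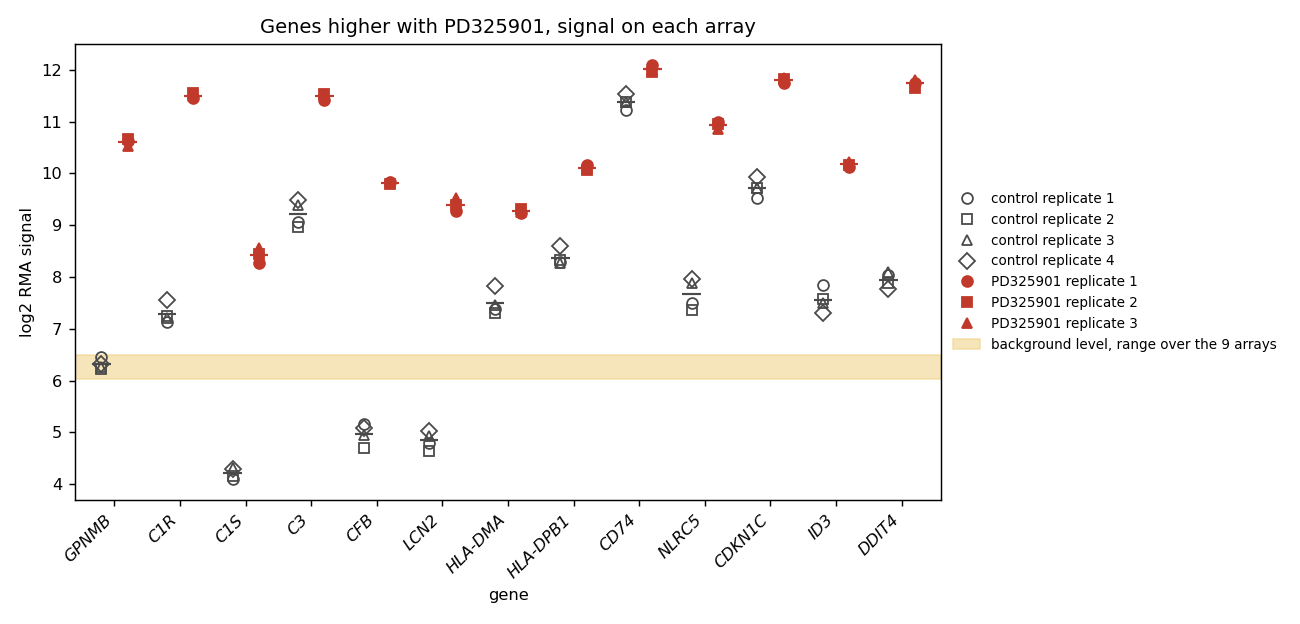
Log2 RMA signal (vertical axis) of 13 genes that rose (horizontal axis) on each of the 4 control arrays (open grey symbols) and 3 PD325901 arrays (filled red symbols), with short lines at group means and a yellow band for the background level over the 9 arrays. The treated arrays lie close together and above every control, and C1S, CFB and LCN2 start below the band.

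Chemokine and NF-kB genes moved both ways. Of 23 chemokines and cytokines 9 rose (39.1%, against 22.8% of all genes) and 7 fell (30.4%, against 12.3%), with a median of 0.31, and 5 rose and 7 fell with arrays centred over genes. IL11, a cytokine of the IL-6 family, went from 8.47, 8.52, 8.24 and 8.52 to 5.73, 5.37 and 5.32, a fall of at least 4.05-fold. CXCL8 (IL-8), a neutrophil attractant, fell 3.14-fold and LIF 2.18-fold, and CSF3 at least 2.37-fold through 1 of 3 probe sets. IL32 and CXCL16 rose 3.89-fold and 3.08-fold. Of 16 NF-kB genes 6 rose (37.5%) and 3 fell (18.8%), with a median of 0.15, or 5 and 6 with arrays centred over genes. BCL3, a nuclear partner of NF-kB, read 7.48, 7.41, 7.60 and 7.46 in the control and 9.66, 9.44 and 9.36 with PD325901, a 4.00-fold rise (adjusted p = 4.03e-07), and the inhibitor NFKBIA rose 1.98-fold. NFKB1 and RELA were not called.

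Genes of both MHC classes rose. Of 25 genes of antigen presentation and checkpoint ligands, 16 rose and 4 fell, with a median of 0.53, or 0.27 with arrays centred over genes, where 11 rose. NLRC5, the transactivator of class I genes, read 7.49, 7.37, 7.89 and 7.96 in the control and 10.997, 10.95 and 10.85 with PD325901, a 9.55-fold rise (adjusted p = 1.15e-07). Its class I targets HLA-C, HLA-E and HLA-B rose 1.65-fold, 1.44-fold and 1.32-fold, HLA-F rose by 0.68 on the log2 scale, and B2M, the shared light chain, had a change of 0.08 that was not called.

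Among class II genes, HLA-DMA, which edits the peptide load, went from 7.38, 7.30, 7.46 and 7.82 to 9.23, 9.32 and 9.26, a 3.43-fold rise (adjusted p = 1.97e-06), and HLA-DPB1, HLA-DMB, HLA-DRA and HLA-DPA1 rose 3.35-fold, 2.79-fold, 2.75-fold and 2.66-fold. Signal may be shared among HLA genes of like sequence. CIITA, the class II transactivator, rose 1.47-fold (adjusted p = 0.00135) in 1 of 4 probe sets, and CD74, the invariant chain, 1.56-fold. The peptide transporter genes moved apart, with TAP1 1.32-fold higher and TAP2 1.69-fold lower. The checkpoint ligand PDCD1LG2 (PD-L2) fell 2.55-fold, and CD274 (PD-L1) was called lower with both groups below background.

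The IRF motif GAAANNGAA, read on both strands in the same windows, was in 10 of 20 matched promoters of this list (50%) and in 6.94% of all. It was in 7.16% of promoters of all genes that rose at least 2-fold. Of the 10 genes with it, 5 rose, 2 fell and 3 were not called. The upstream stretches of the 4 called members of largest change with an upstream match are shown as before, with the match in capitals.
HLA-DMB, chr6:32941121-32941180, minus strand: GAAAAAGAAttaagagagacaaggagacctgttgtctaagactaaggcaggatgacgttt
TAP2, chr6:32838740-32838799, minus strand: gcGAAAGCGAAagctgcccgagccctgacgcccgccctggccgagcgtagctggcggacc
HLA-F, chr6:29723279-29723338, plus strand: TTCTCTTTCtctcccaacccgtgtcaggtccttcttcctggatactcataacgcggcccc
CD74, chr5:150413023-150413082, minus strand: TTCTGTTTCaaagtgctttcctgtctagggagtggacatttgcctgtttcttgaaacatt

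Of 21 genes of interferon signalling, 9 rose (42.9%, against 22.8% of all genes) and 3 fell (14.3%, against 12.3%), with a median of 0.21 that turned to -0.04 with arrays centred over genes. IRF9, the DNA-binding subunit of the ISGF3 complex, read 9.89, 9.86, 10.09 and 9.72 in the control and 11.27, 11.20 and 11.21 with PD325901, a 2.53-fold rise (adjusted p = 9.01e-06). The targets IFIT1 and OAS1 rose 1.78-fold and 1.59-fold, while IFIT3 and IFI44 fell 1.34-fold and 1.55-fold. Of the interferon gamma receptor, IFNGR1 rose 1.53-fold and IFNGR2 fell 1.90-fold. IRF1, SOCS1, SOCS3 and ISG15 were not called.

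Among genes above background on all 7 arrays, GPNMB and C1R had the largest rises. GPNMB, a transmembrane glycoprotein, read 6.45, 6.23, 6.26 and 6.33 in the control, just above background, and 10.62, 10.67 and 10.54 with PD325901, a 19.6-fold rise (log2 4.29, SE 0.09, adjusted p = 1.71e-09). SERPINF1, which encodes the antiangiogenic factor PEDF, went from 7.53, 7.61, 7.67 and 7.91 to 11.66, 11.71 and 11.97, a 17.2-fold rise. LOXL4, a lysyl oxidase, MEGF6 and the matrix protein gene PAPLN rose 16.9-fold, 14.4-fold and 13.9-fold. DDIT4 (REDD1), an inhibitor of mTORC1, rose 13.9-fold, the epithelial factor ELF3 12.2-fold, OLFML2A 11.9-fold, the cGMP phosphodiesterase PDE5A 11.6-fold and the nicotinamide methyltransferase NNMT 10.9-fold. SLC12A8, the glycogen primer GYG2 and the water and glycerol channel AQP3 rose 9.82-fold, 7.96-fold and 7.60-fold.

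From below background, DEFB1, a beta-defensin, reached 10.88, 10.78 and 10.79, at least 24.4-fold higher, and the leucine zipper factor MAF at least 16.0-fold, in 2 of 4 probe sets. MB (myoglobin), SHOC1, in 1 of 3 probe sets, and CCN5, a matricellular protein, rose at least 12.7-fold, 10.8-fold and 8.97-fold. Among the 15 largest falls of genes above background on all 7 arrays, those not yet described were UBASH3B, a tyrosine phosphatase, by 6.48-fold, TLR4, the receptor for lipopolysaccharide, by 6.28-fold, ADAMTS6, in 1 of 2 probe sets, by 6.04-fold, and RAET1E, a ligand of NKG2D, by 5.82-fold. To below background fell MIG7 at least 8.95-fold, KRTAP2-3 at least 7.26-fold, ANKRD22 at least 2.52-fold and TNFSF18, the GITR ligand, at least 2.02-fold.

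Against the BB94 arrays, 5652 of 18132 genes (31.2%) were called in PD325901, a comparison that shares the treated arrays with the one above. The median SD was 0.0841 between the 2 BB94 arrays. DUSP6, EGR1, FOSL1 and CCND1 changed by -0.09, -0.30, -0.13 and -0.15 in BB94 against control, none of them called. NNMT rose under both inhibitors against the same controls, by 3.44 with PD325901 and 3.22 with BB94, and the difference of 0.23 was not called (adjusted p = 0.103). SAA1 rose by 1.75 with PD325901 and 2.51 with BB94, and was lower in PD325901 than in BB94 (log2 -0.76, adjusted p = 4.91e-04). HES1 fell under both, to below background with PD325901 and to 6.78 and 6.63 on the BB94 arrays, so the sizes cannot be compared. DUSP1 changed by 2.57 with PD325901 and 1.71 with BB94, the latter with an adjusted p of 0.0501, and their difference of 0.85 was not called (adjusted p = 0.126).

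Some genes moved in opposite directions with the 2 inhibitors. ELF3 rose by 3.61 with PD325901 and fell by 1.38 with BB94, at 7.31 and 7.02 on the BB94 arrays, a difference of 4.996 between the inhibitors (adjusted p = 2.73e-09). S100A4 was higher in PD325901 than in BB94 by 1.66, and PMEPA1, a TGF-beta target, was lower in PD325901 by -1.82 (adjusted p = 2.57e-07). AGR2, ERBB3 and TEF, a clock output gene, rose with PD325901 and lay below background on both BB94 arrays, so no size is given for their differences. These genes were chosen after their values were seen.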

How the data were processed

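RNA from 9 cultures was hybridised to Affymetrix PrimeView arrays. Per the series' design text, the authors preprocessed the arrays by RMA in Bioconductor's affy, giving log2 values. RMA equalizes the arrays' distributions, so a shift shared by most genes would not be seen. The deposited log2 values of 49395 probe sets were used as given. Probe sets with 1 gene symbol (44988) were kept, with the highest mean per gene and no filter on low values. Of these, 44961 probe sets matched a RefSeq gene. A gene's change is that of the probe set used. Where no count of probe sets is given, others of that gene may not have been called. The tests were limma's (version 3.58.1, R 4.3.3; lmFit, eBayes, a coefficient per group, all 9 arrays, two-sided), with p-values adjusted over 18132 genes by the Benjamini-Hochberg method, and an adjusted p comes from this fit, which was tested on simulated data, unless its sentence names another setting. With arrays there is no read depth, and their number limits precision.

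The background level is the highest of 23 background probe sets per array. A gene below it on an array of its dimmer group has a bound ("at least N-fold"), the brighter mean against the higher of that level and the gene's own value, and none is given for a gene with both groups under that level or with a bound under 1. Alternatives were the mean of probe sets, all probe sets, a filter, other scalings, array weights, a replicate block and fewer arrays.

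The comparison, the 36 gene lists and the naming rule were chosen with earlier results of these data known. Named by the rule are the 15 highest and 15 lowest called changes measured on both sides with groups apart, 5 called members per list, 6 changes each way across the background level, the 5 called genes of largest spread with PD325901 and 11 fixed genes, AXL, MET, EGFR, ERBB2, ERBB3, DUSP6, SPRY4, ETV5, CCND1, MYC and TIMP3. Other list members are named where they bear on a count, and neighbours and BB94 examples were chosen after their values were seen. Same-numbered samples shared only a number, so no block was used in the comparison.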

Additional observations from a re-analysis of the deposited data

Results flagged for a closer look

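Of the 198 named genes, 11 had a control array that stood apart from the other 3 by more than Dixon's criterion for 4 samples, and chance flags about 1 in 20 such groups. Control replicate 4 stood apart in 7. It was lower than the other controls for ELF3 at 8.39 (others 8.59 to 8.62), EPHA2 at 10.92 (11.35 to 11.43), BHLHE41 at 9.32 (9.82 to 9.86), SLC7A11 at 11.68 (11.92), LUM at 3.25 (3.49 to 3.52) and MAF at 4.89 (5.55 to 5.63), and higher for MIG7 at 9.70 (9.54 to 9.55). Control replicate 3 was higher for CTSD at 7.87 (others 7.18 to 7.28) and EGFR at 10.48 (10.35 to 10.37), control replicate 1 for ID4 at 8.69 (8.38 to 8.42), and control replicate 2 was lower for ERBB3 at 5.98 (6.50 to 6.54). LUM lay below background on all 7 arrays, and MAF on all 4 controls. In all 11 genes the treated arrays lay on one side of all 4 controls. Apart from the fixed genes, the named genes were chosen among called ones, so this separation was largely set by the choice.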

How the results depend on the processing

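No alternative tried reversed a called change among the 198 named genes. Centring on the median over genes gave 2353 higher and 5076 lower. Testing all probe sets gave 13445 calls (7885 higher, 5560 lower), or 11841 against BB94, over more tests. Leaving out 1 array in turn gave 5214 to 7446 calls, 3310 to 5134 higher and 1779 to 2312 lower, and 3800 to 6413 against BB94. With the replicate number as a block, 5950 genes were called, 3810 higher and 2140 lower. Deviations of same-numbered samples correlated at 0.0519, -0.0967 and -0.177, so the numbers gave no pairing. Array weights gave 8171 calls, control replicates 3 and 4 alone 8338, control replicates 1 and 2 alone 6696, and the filter at a mean of 6 gave 5851. With the 90th percentile of the background probe sets as the level, 125 genes rose from below it and 96 fell to below it, against 201 and 106. Of the named genes, SREBF1, SDHD, NDUFB5 and UQCRC2 each lost their calls in at least 4 of the 9 fits that left out 1 array, and NF1, SLC38A1 and PFKFB3 with the mean of their probe sets. The cause was not tested.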
